A study of Rattus norvegicus and Mus musculus with 25 samples.

Results

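The genes described here are the 5 thrombospondins, Thbs1, Thbs2, Thbs3, Thbs4 and Comp, and Cd47, a cell surface receptor of thrombospondin-1. They were chosen by symbol, and all 6 were found among the 28905 uniquely named rows of each of 2 rat tables and the 54083 of 1 mouse table. The values are RNA levels in CPM, which stands for counts normalised to the same total in every library, in 25 libraries of neonatal heart muscle cells, a setting in which the lipoprotein receptor gene Vldlr, its ligand Reelin or Thbs1 had been manipulated. The series names Reelin and thrombospondin-1 as ligands acting through Vldlr, and each manipulation was set against its own control.

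The rat libraries came from ventricular cardiomyocytes of SD rats at day 1 of age, digested with trypsin and collagenase, pre-plated to remove fast-attaching cells and then cultured on collagen. A 12-library table holds 6 groups of 2 libraries. Cells of the si-Vldlr group received 50 nM siRNA against Vldlr for 60 h, and their controls, si-Control_v, received control siRNA. Cells of the Reelin group received Reelin for 48 h, and their controls received PBS. Cells of the Vldlr OE group received an AAV9 vector carrying Vldlr behind the cardiomyocyte promoter cTnT for 72 h. The vector of the Control group carried GFP behind the CMV promoter. In that comparison the promoter and the gene carried both differ and cannot be told apart. The 2 Control columns carry a name that matches no label and were assigned by elimination, so they are called column 1 and column 2 and bear no replicate number. A separate 4-library table holds si-Thbs1 and its own control siRNA, si-Control_t, 2 libraries each, again at 50 nM for 60 h. The mouse table holds cardiomyocytes of day 1 C57BL/6 mice with 3 libraries each of Myh6-Cre;Vldlr f/f, Myh6-Cre;Vldlr f/+ and Vldlr f/f. Both Cre genotypes carry Cre under the cardiomyocyte promoter Myh6 and 2 or 1 floxed Vldlr alleles, and the Vldlr f/f group carries the floxed alleles without Cre. The preparation of the mouse cells is not given in the labels. Separate cultures or animals behind the libraries of a group are not stated either, so p-values measure only the spread between libraries.

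Thrombospondins are secreted, calcium-binding matrix proteins. Thrombospondin-1 and thrombospondin-2 form trimers that carry type 1 repeats, bind receptors such as Cd47, Cd36 and integrins and, for thrombospondin-1, release TGF-beta from its latent complex. Thrombospondin-3, thrombospondin-4 and Comp (cartilage oligomeric matrix protein) form pentamers without type 1 repeats. In the mouse heart thrombospondin-4 is known for a role in the endoplasmic reticulum stress response. Cd47 also binds Sirpa on phagocytes, the inhibitory contact known as a don't-eat-me signal. Thbs1 is a classical product of fibroblasts, smooth muscle cells and platelets as well as of stressed heart muscle cells.

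The libraries showed heart muscle and fibroblast RNA together with RNA of other cell types. Summed over 9 cardiomyocyte markers, CPM was 25055 to 47490 in rat and 49965 to 62959 in mouse libraries. Summed over 9 fibroblast markers, CPM was 28124 to 46493 in rat and 3040 to 5751.5 in mouse libraries. Of 5 platelet markers, Pf4 was at 26.5 to 60.5 CPM in rat and the other 4 were at 3.39 CPM or less. Summed over 8 macrophage markers, CPM was 508.0 to 1128 in rat, although Cd163, a member of that list, was at 0.0409 CPM or less. In mouse, sums were 2964 to 6701 CPM over 7 red cell markers and 997.8 to 1419 CPM over 8 endothelial markers. Macrophage sums were 87.3 to 134.6 CPM and platelet sums 15.0 to 54.8 CPM in mouse. In rat, endothelial sums were 48.1 to 83.9 CPM, and those of the 3 red cell markers found were 0.392 to 2.66 CPM. Smooth muscle and pericyte sums were 642.9 to 1155 CPM in rat and 552.2 to 1009 CPM in mouse. In bulk RNA, fewer cells of a type and less RNA per cell cannot be told apart. The tables were normalised separately and the species differ, so levels are compared within a table only.

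No member passed an adjusted p of 0.05 in any of the 7 comparisons (limma with Benjamini-Hochberg adjustment over all genes tested). The genes that did pass numbered 4 for si-Vldlr (0.0289% of 13860 tested), 2 for Reelin (0.0144%), 1 for Vldlr OE (0.00722%), 6 for si-Thbs1 (0.0447% of 13416) and 0 (0%) of 14922 in each mouse comparison, where 453, 362 and 138 genes had an unadjusted p under 0.05 for Myh6-Cre;Vldlr f/f set against Vldlr f/f, Myh6-Cre;Vldlr f/+ set against Vldlr f/f and Myh6-Cre;Vldlr f/f against Myh6-Cre;Vldlr f/+. edgeR on whole-number steps recovered from the mouse values also called 0 genes, with 344, 349 and 140 genes under an unadjusted 0.05 in the same order of comparisons. The descriptions below are therefore of levels, of groups that did or did not overlap, and of the intervals that the fits allow. All fitted differences are log2 ratios of CPM + 1, a scale on which the added 1 shrinks the change of genes as low as Thbs4 and Comp are in rat.

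The targeted gene Vldlr is given first because it checks the labels. It was at 183.0 and 171.2 CPM in the si-Vldlr libraries, against 252.5 and 257.1 CPM in si-Control_v, and at 656.5 and 888.7 CPM in Vldlr OE against 576.6 and 379.0 CPM in Control. Both pairs were in the direction of the label with no overlap, by -0.52 and 0.71 (log2, SE 0.18 each), and neither passed over all genes (limma adjusted p = 0.348 and 0.958). The labels do not say whether reads of the vector's own Vldlr are counted on this row. In mouse it averaged 78.4 ± 6.9 CPM in Myh6-Cre;Vldlr f/f, 103.5 ± 7.3 CPM in Myh6-Cre;Vldlr f/+ and 155.8 ± 43.7 CPM in Vldlr f/f (SD, n = 3 each). Myh6-Cre;Vldlr f/f lay below both other genotypes without overlap. Myh6-Cre;Vldlr f/+ overlapped Vldlr f/f, reaching 111.9 CPM where the lowest Vldlr f/f library was at 108.5 CPM. No mouse difference of Vldlr passed over all genes (limma adjusted p of 0.997 or above).

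Thbs1, which encodes the ligand of both Vldlr and Cd47, is shown here with Cd47 by the 250 bases before the start of each rat gene, because the 4 siRNA libraries of the 12-library table held the lowest Thbs1 and the highest Cd47. The sequences are from RefSeq on build GRCr8, 5′ to 3′ on the gene's own strand, and capitals mark matches on either strand to GGGCGG or, in Thbs1, GGAATG. The Thbs1 window is chr3:125510000-125510249 on the plus strand and the Cd47 window is chr11:64438189-64438438 on the minus strand. These coordinates are not those of the rn6 build named in the submitters' processing notes.
Thbs1: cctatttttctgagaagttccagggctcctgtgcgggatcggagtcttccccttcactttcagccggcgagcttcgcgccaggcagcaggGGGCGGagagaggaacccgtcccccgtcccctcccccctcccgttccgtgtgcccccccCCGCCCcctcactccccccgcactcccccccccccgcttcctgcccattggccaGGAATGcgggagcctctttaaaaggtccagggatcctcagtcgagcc
Cd47: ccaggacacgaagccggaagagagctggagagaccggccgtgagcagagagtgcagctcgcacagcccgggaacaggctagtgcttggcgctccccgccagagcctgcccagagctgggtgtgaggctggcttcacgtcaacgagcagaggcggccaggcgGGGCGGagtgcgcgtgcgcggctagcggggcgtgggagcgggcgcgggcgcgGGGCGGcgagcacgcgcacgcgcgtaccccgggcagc

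The Thbs1 window held GGGCGG or its reverse complement 2 times and GGAATG 1 time. The Cd47 window held GGGCGG 2 times and GGAATG 0 times. Of 33469 rat windows of the same length, 30.5% held GGGCGG and 12.1% held GGAATG. Neither window held the TATA box motif TATAAA (held by 12.9% of windows), the E-box motif CACGTG (5.59%), the AP-1 motif TGANTCA (6.34%) or a CArG box (1.5%). The motif pairs do not overlap in these windows, and a match or its absence is a description of these letters. The windows had a GC content of 67.6% for Thbs1 and 74% for Cd47, beside a median of 51.2% over all windows. Windows of Thbs3, Thbs4 and Comp were also read, with 1, 2 and 0 matches to GGGCGG. For GGAATG they held 0, 1 and 0 matches in the same order, the Thbs4 match being the reverse complement. No window of Thbs2 was read.

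**Figure D1:**
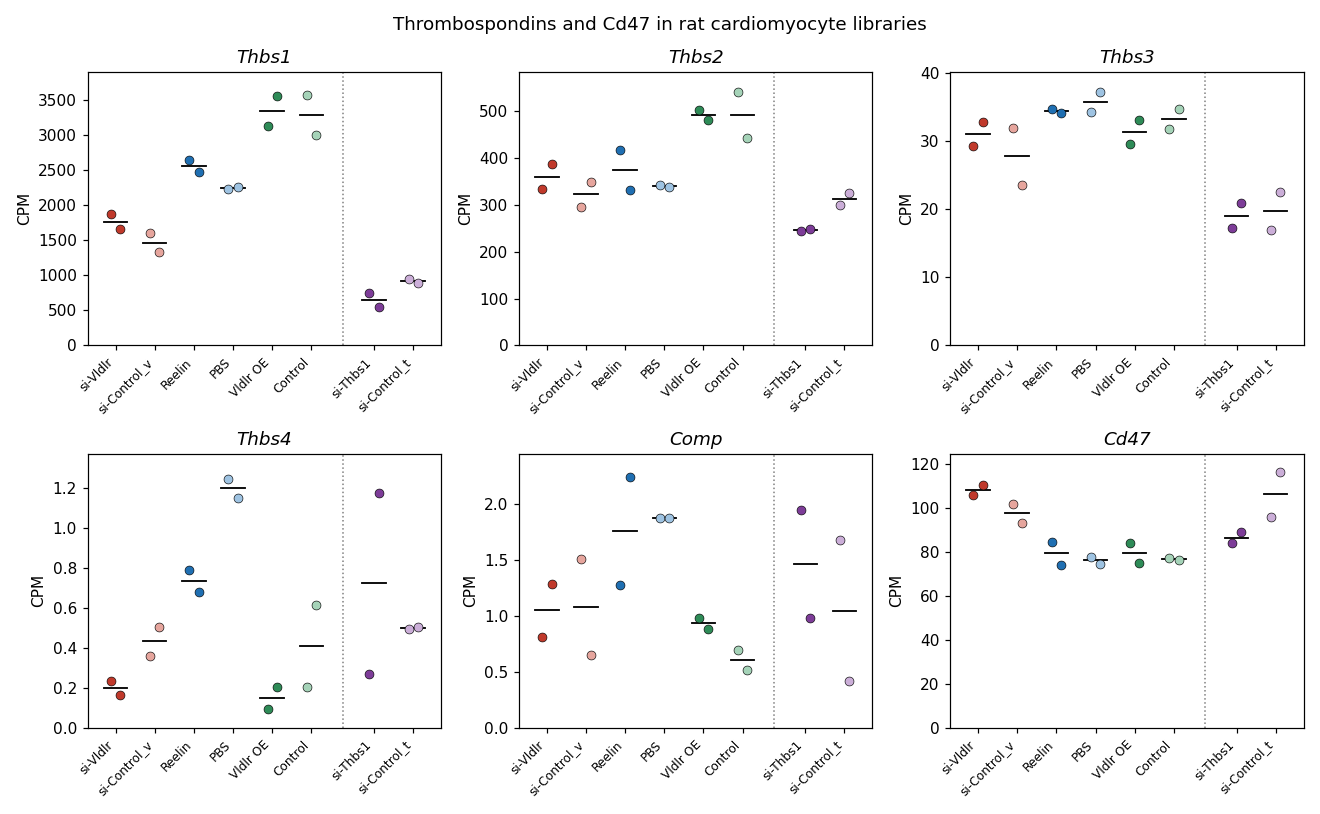
CPM of each member in every rat library (points) with the group mean (line), each manipulated group left of its control; the dotted line separates the 12-library from the 4-library table, which were normalised separately. Thbs1 spanned 1322 to 3558 CPM over the 12 libraries, with Vldlr OE and Control highest and both siRNA groups lowest.

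Thbs1 differed more between the control groups than between any manipulated group and its control in the 12-library table. It was at 1864 and 1650 CPM in the si-Vldlr libraries, against 1601 and 1322 CPM in si-Control_v. It was at 2638 and 2467 CPM in Reelin against 2232 and 2258 CPM in PBS. It was at 3127 and 3557 CPM in Vldlr OE against 3558 and 2998 CPM in Control. Both si-Vldlr libraries lay above both of their controls, both Reelin libraries lay above both PBS libraries, and Vldlr OE and Control overlapped. The order of group means was Vldlr OE, Control, Reelin, PBS, si-Vldlr and si-Control_v, and of these neighbours Vldlr OE and Control alone overlapped. The control groups on their own spanned means of 1461 to 3278 CPM, and they differ in vehicle, vector and culture time, so these cannot be told apart. The fitted differences were 0.27 for si-Vldlr (95% interval -0.05 to 0.58, limma adjusted p = 0.487), 0.18 for Reelin (-0.13 to 0.50, adjusted p = 1) and 0.03 for Vldlr OE (-0.28 to 0.34, adjusted p = 0.994). Leaving out 1 library moved the si-Vldlr value to 0.13 at the lowest, without si-Control_v replicate 2, and to 0.41 at the highest, when si-Control_v replicate 1 was left out. The response of Thbs1 to si-Vldlr minus its response to Vldlr OE, manipulations of Vldlr in opposite directions, was 0.24 (95% interval -0.21 to 0.68, limma adjusted p = 0.955), where 0.00722% of genes passed.

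Thbs2, whose product shares the domain order of thrombospondin-1, was at 334 and 387 CPM in the si-Vldlr libraries, against 296 and 350 CPM in si-Control_v. It was at 417 and 331 CPM in Reelin against 342 and 338 CPM in PBS. It was at 504 and 483 CPM in Vldlr OE against 542 and 444 CPM in Control. The manipulated and control libraries overlapped in all 3 pairs, and Vldlr OE and Control were the only groups set apart from the other 4. The fitted differences were 0.16, 0.13 and 0.01 for si-Vldlr, Reelin and Vldlr OE, with 95% intervals of -0.15 to 0.47, -0.18 to 0.44 and -0.30 to 0.32 in the same order of comparisons.

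Thbs3, a pentameric member, was at 23.6 to 37.3 CPM over the 12 rat libraries. Each group overlapped its neighbour in the order of means from PBS to si-Control_v. All PBS and Reelin libraries, at 34.2 to 37.3 CPM, lay above all siRNA libraries, at 23.6 to 32.8 CPM. Thbs4 was at 0.0954 to 1.25 CPM and Comp at 0.512 to 2.24 CPM over the 12 libraries. No member was at 0 in any library of the series. Thbs4 passed the filter of 1 CPM in 2 libraries through PBS alone, where it was at 1.25 and 1.15 CPM, beside 0.791 and 0.680 CPM in Reelin. Thbs4 was also lower without overlap in si-Vldlr, at 0.235 and 0.164 CPM against 0.361 and 0.503 CPM in si-Control_v, and in Vldlr OE, at 0.0954 and 0.202 CPM against 0.203 and 0.615 CPM in Control. Comp was at 0.978 and 0.886 CPM in Vldlr OE against 0.698 and 0.512 CPM in Control, higher without overlap, and it overlapped its control in the other pairs. These are levels near or below 1 CPM, and none of these differences passed (limma adjusted p of 0.609 or above for Thbs4 and 0.958 or above for Comp).

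Cd47, the receptor, was at 105.8 and 110.5 CPM in the si-Vldlr libraries, against 101.6 and 93.1 CPM in si-Control_v. It was at 84.4 and 74.1 CPM in Reelin against 77.7 and 74.5 CPM in PBS. It was at 84.0 and 74.7 CPM in Vldlr OE against 77.2 and 76.2 CPM in Control. Both si-Vldlr libraries lay above their controls, and the other pairs overlapped. All 4 siRNA libraries lay above the other 8 libraries, which spanned 74.1 to 84.4 CPM, whereas for Thbs1 they lay below the other 8. The fitted differences were 0.15 for si-Vldlr (95% interval -0.05 to 0.36, limma adjusted p = 0.549), 0.06 for Reelin and 0.05 for Vldlr OE.

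Counted over the 6 members, 3 did not overlap between si-Vldlr and si-Control_v (Thbs1 and Cd47 higher, Thbs4 lower), where 48.5% of all genes tested did not overlap. For Reelin, 1 of the 5 members other than Thbs4 did not overlap (Thbs1 higher), beside 32.8% of all genes. Thbs4 is left out of that count because it passed the filter only through PBS, the group in which it was higher. For Vldlr OE, 2 did not overlap (Comp higher, Thbs4 lower), beside 25% of all genes. These counts are near or below the shares of all genes tested.

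The si-Thbs1 comparison asked what a lower Thbs1 did, and Thbs1 itself checks it. Thbs1 was at 744.6 and 545.9 CPM in si-Thbs1 against 943.5 and 892.1 CPM in si-Control_t. Thbs2 was at 243.8 and 249.5 CPM in si-Thbs1 against 300.7 and 325.7 CPM in si-Control_t. Cd47 was at 83.8 and 88.9 CPM in si-Thbs1 against 95.8 and 116.3 CPM in si-Control_t. In all 3 genes both si-Thbs1 libraries lay below both controls. That is 3 of the 5 members tested, all lower, where 29.3% of all genes did not overlap and 10.8% were lower without overlap. One of the 3 is the siRNA's target. The fitted differences were -0.52 for Thbs1 (95% interval -0.99 to -0.05), -0.34 for Thbs2 (-0.65 to -0.03) and -0.29 for Cd47 (-0.65 to 0.08). Their unadjusted p-values in the limma fit were 0.0345, 0.0360 and 0.103, where 5.52% of all genes had one under 0.05, and none passed over all genes (limma adjusted p = 0.821, 0.833 and 1.00). The Thbs1 value was -0.75 without si-Thbs1 replicate 1 and -0.30 without si-Thbs1 replicate 2, so its size rests on which of these libraries is read. The Cd47 value was -0.15 without si-Control_t replicate 2 and -0.43 without si-Control_t replicate 1.

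Thbs3 was at 17.2 and 20.9 CPM in si-Thbs1 against 16.9 and 22.6 CPM in si-Control_t, and Comp at 1.95 and 0.984 CPM against 1.68 and 0.413 CPM in si-Control_t. Both overlapped. Thbs4 was at 0.271 and 1.17 CPM in si-Thbs1 against 0.495 and 0.505 CPM in si-Control_t and did not pass the filter, so it was not tested. Beside these values, all 9 fibroblast markers had negative differences (median -0.35, beside 0.03 over all genes), with sums of 28124 to 34623 CPM in si-Thbs1 and 33062 to 38457 CPM in si-Control_t. All 6 epicardial markers were negative as well, with sums of 111.9 to 112.2 CPM in si-Thbs1 and 131.6 to 136.1 CPM in si-Control_t. The cardiomyocyte sums spanned 25055 to 47490 CPM in si-Thbs1 and 25567 to 36662 CPM in si-Control_t. Platelet sums were lower without overlap, at 29.8 to 30.5 CPM in si-Thbs1 and 39.7 to 48.9 CPM in si-Control_t, and 6 of 7 macrophage markers tested were negative (median -0.27). Smooth muscle and pericyte sums were higher without overlap, at 732.9 to 776.4 CPM in si-Thbs1 and 642.9 to 684.4 CPM in si-Control_t, with 4 of 7 markers positive (median 0.36). Endothelial sums overlapped, at 53.6 to 57.4 CPM in si-Thbs1 and 48.1 to 74.1 CPM in si-Control_t. The part of these marker levels in the lower Thbs1, Thbs2 and Cd47 was not tested.

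**Figure D2:**
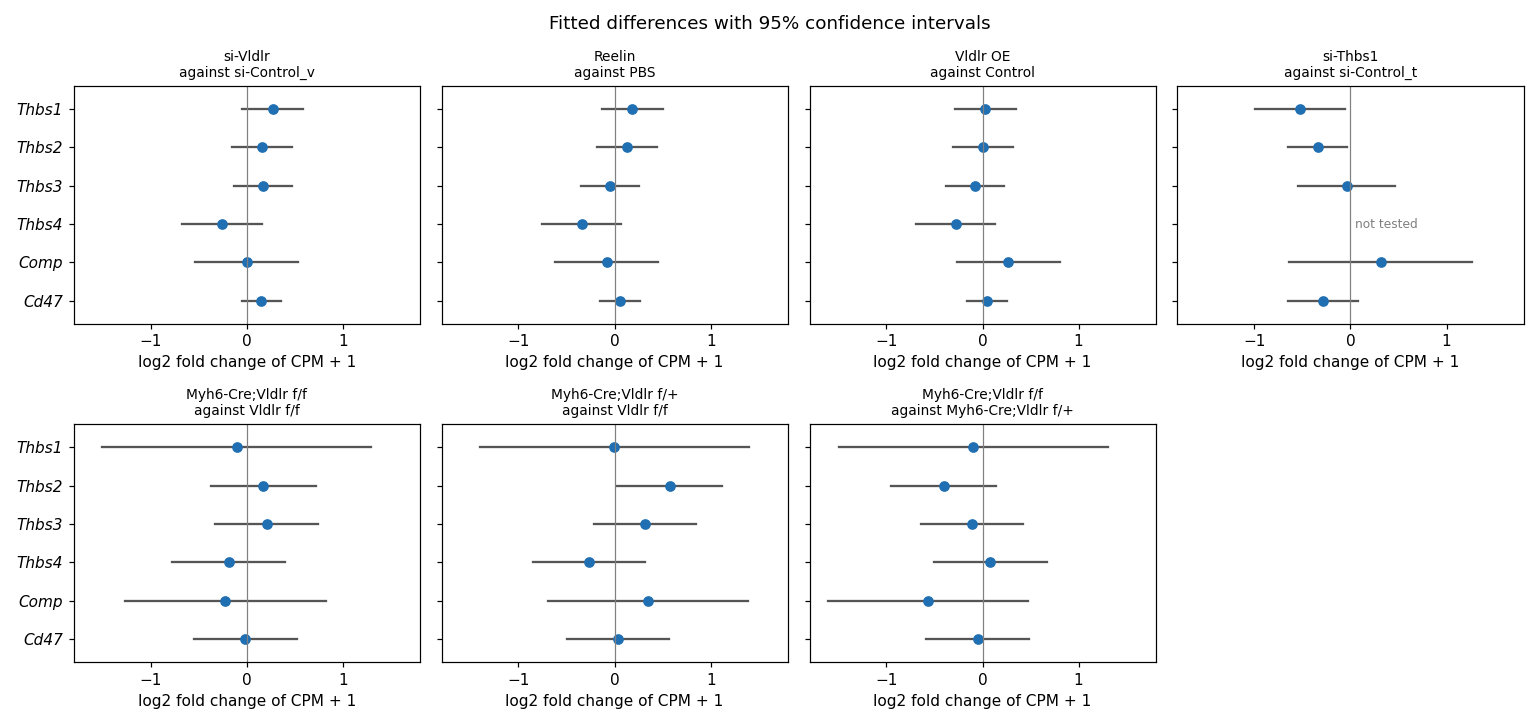
Fitted log2 fold change of CPM + 1 (points) with its 95% confidence interval (lines) for each member, 1 panel per comparison, positive values being higher in the group named first. All intervals include 0 except Thbs1 (-0.99 to -0.05) and Thbs2 (-0.65 to -0.03) for si-Thbs1 and Thbs2 (0.03 to 1.12) for Myh6-Cre;Vldlr f/+ set against Vldlr f/f, none of which passed over all genes.

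The mouse genes are placed on GRCm38 (mm10) by GENCODE M21, and all 6 are protein-coding. Thbs1 is at chr2:118111876-118127133, Thbs2 at chr17:14665500-14694235, Thbs3 at chr3:89215180-89226837, Thbs4 at chr13:92751590-92794818, Comp at chr8:70373558-70382066 and Cd47 at chr16:49800533-49915010. Divided by exon length, which allows genes to be compared, levels over the 9 mouse libraries averaged 12.1 ± 3.3 CPM per kilobase for Thbs2, 11.1 ± 6.8 for Thbs1, 9.25 ± 1.54 for Cd47, 6.65 ± 1.35 for Thbs4, 4.69 ± 0.92 for Thbs3 and 3.38 ± 1.65 for Comp (SD, n = 9). Of the 5 thrombospondins, Thbs1 was the highest per kilobase in 4 mouse libraries, Thbs2 in 4 and Thbs4 in 1, and Comp was the lowest in 7. No order between Thbs1 and Thbs2 per kilobase held over these libraries.

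**Figure D3:**
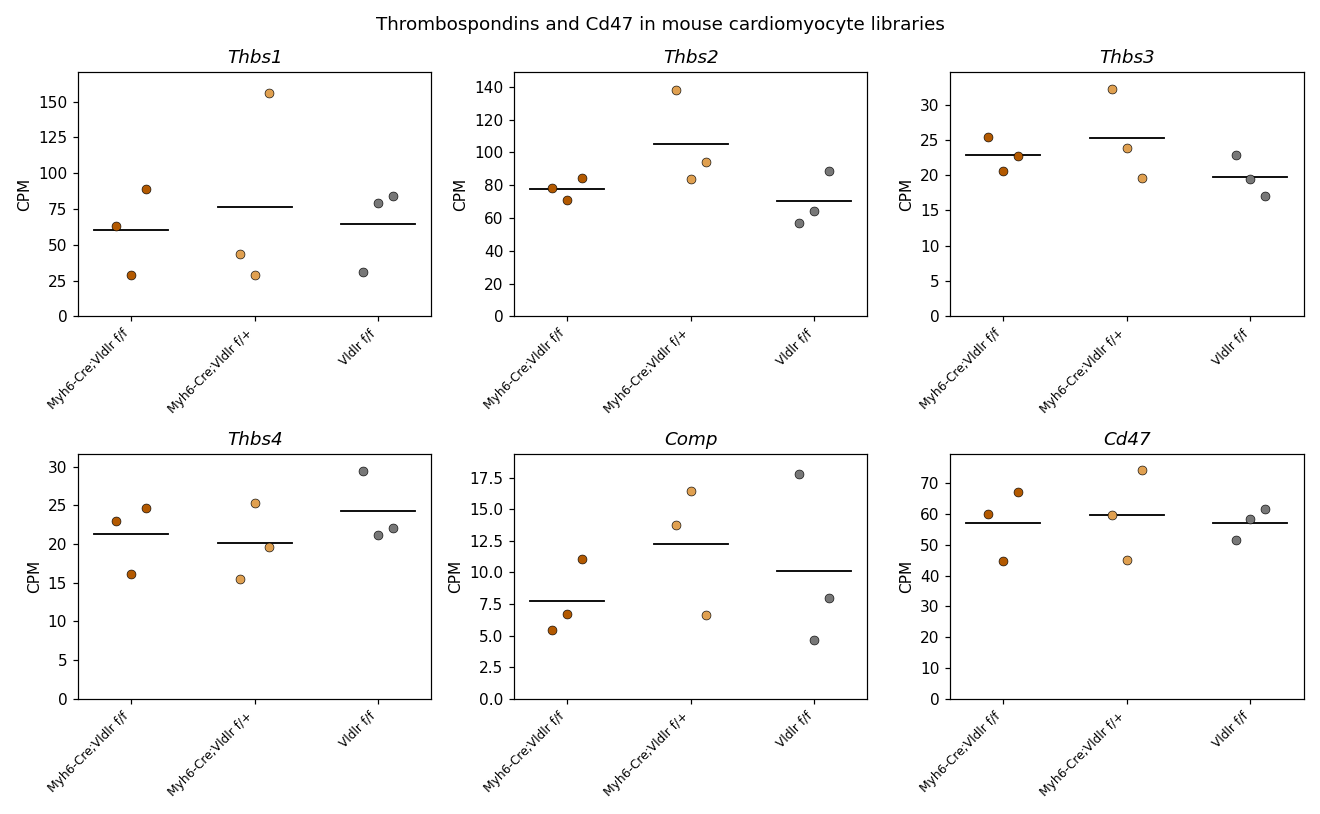
CPM of each member in every mouse library (points) with the genotype mean (line). The 3 genotypes overlapped for every member, and Thbs1 spanned 29.0 to 156 CPM, from 1 Myh6-Cre;Vldlr f/f library to 1 Myh6-Cre;Vldlr f/+ library.

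Thbs1 varied more within the mouse genotypes than between them. It was at 63.4, 29.0 and 89.1 CPM in Myh6-Cre;Vldlr f/f, at 43.8, 29.2 and 156.3 CPM in Myh6-Cre;Vldlr f/+ and at 30.7, 79.1 and 83.9 CPM in Vldlr f/f. Each genotype held libraries near 30 CPM and libraries near 80 CPM or more, and the highest was Myh6-Cre;Vldlr f/+ replicate 3. The fitted differences were -0.10 for Myh6-Cre;Vldlr f/f set against Vldlr f/f (95% interval -1.50 to 1.297), -0.01 for Myh6-Cre;Vldlr f/+ set against Vldlr f/f (-1.40 to 1.39) and -0.10 for Myh6-Cre;Vldlr f/f against Myh6-Cre;Vldlr f/+ (-1.50 to 1.303). These intervals include changes of more than 2-fold either way. The sign turned with single libraries, the Myh6-Cre;Vldlr f/+ value being -0.70 without Myh6-Cre;Vldlr f/+ replicate 3 and 0.49 without Myh6-Cre;Vldlr f/+ replicate 2.

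Thbs2 was at 78.4, 71.2 and 84.2 CPM in Myh6-Cre;Vldlr f/f, at 138.0, 83.8 and 94.4 CPM in Myh6-Cre;Vldlr f/+ and at 57.1, 64.6 and 89.0 CPM in Vldlr f/f. Myh6-Cre;Vldlr f/+ replicate 1 was the highest library, and each pair of genotypes overlapped. The difference between Myh6-Cre;Vldlr f/+ and Vldlr f/f was 0.57 (95% interval 0.03 to 1.12). Its unadjusted p-value in the limma fit was 0.0420, where 2.43% of all genes had one under 0.05, and it missed the threshold over all genes with a limma adjusted p of 0.999. It was 0.36 without Myh6-Cre;Vldlr f/+ replicate 1. In the same comparison all 9 fibroblast markers and all 6 epicardial markers had positive differences, with medians of 0.34 and 1.26 beside -0.06 over all genes. The fibroblast sums were 3547 to 5751.5 CPM in Myh6-Cre;Vldlr f/+ and 3040 to 4139 CPM in Vldlr f/f, and the epicardial sums were 109.5 to 440.0 CPM and 61.7 to 153.8 CPM in the same order. The library highest in Thbs2 was also the highest in both of these sums. All 5 platelet and all 7 red cell markers were positive too (medians 0.50 and 0.44). Of 7 smooth muscle and pericyte markers 6 were negative (median -0.40). Their sums were 552.2 to 783.7 CPM in Myh6-Cre;Vldlr f/+ and 798.3 to 1009 CPM in Vldlr f/f. Cardiomyocyte, endothelial and macrophage markers had medians of 0.11, 0.07 and 0.07. The part of all these markers in the Thbs2 value was not tested. Against Vldlr f/f, Thbs2 in Myh6-Cre;Vldlr f/f differed by 0.17 (95% interval -0.38 to 0.72). There too all 6 epicardial markers were positive (median 0.94), as were 6 of 9 fibroblast markers (median 0.16).

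Thbs3 was at 25.5, 20.6 and 22.7 CPM in Myh6-Cre;Vldlr f/f, at 32.2, 23.8 and 19.6 CPM in Myh6-Cre;Vldlr f/+ and at 22.9, 19.5 and 17.0 CPM in Vldlr f/f. Thbs4 was at 23.0, 16.1 and 24.7 CPM in Myh6-Cre;Vldlr f/f, at 15.5, 25.3 and 19.6 CPM in Myh6-Cre;Vldlr f/+ and at 29.4, 21.2 and 22.1 CPM in Vldlr f/f. Comp was at 5.46, 6.71 and 11.1 CPM in Myh6-Cre;Vldlr f/f, at 13.8, 16.4 and 6.59 CPM in Myh6-Cre;Vldlr f/+ and at 17.8, 4.67 and 7.94 CPM in Vldlr f/f. All 3 pentameric members overlapped between every pair of genotypes. Cd47 was at 60.0, 44.7 and 67.0 CPM in Myh6-Cre;Vldlr f/f, at 59.8, 45.2 and 74.2 CPM in Myh6-Cre;Vldlr f/+ and at 51.5, 58.4 and 61.7 CPM in Vldlr f/f, with overlap again. Cd47 averaged 57.3 CPM in Myh6-Cre;Vldlr f/f and 57.2 CPM in Vldlr f/f, a difference of -0.02 (95% interval -0.55 to 0.52). None of the 6 members was free of overlap in any mouse comparison, where 8.52%, 5.97% and 2.49% of genes were for Myh6-Cre;Vldlr f/f set against Vldlr f/f, Myh6-Cre;Vldlr f/+ set against Vldlr f/f and Myh6-Cre;Vldlr f/f against Myh6-Cre;Vldlr f/+.

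**Figure D4:**
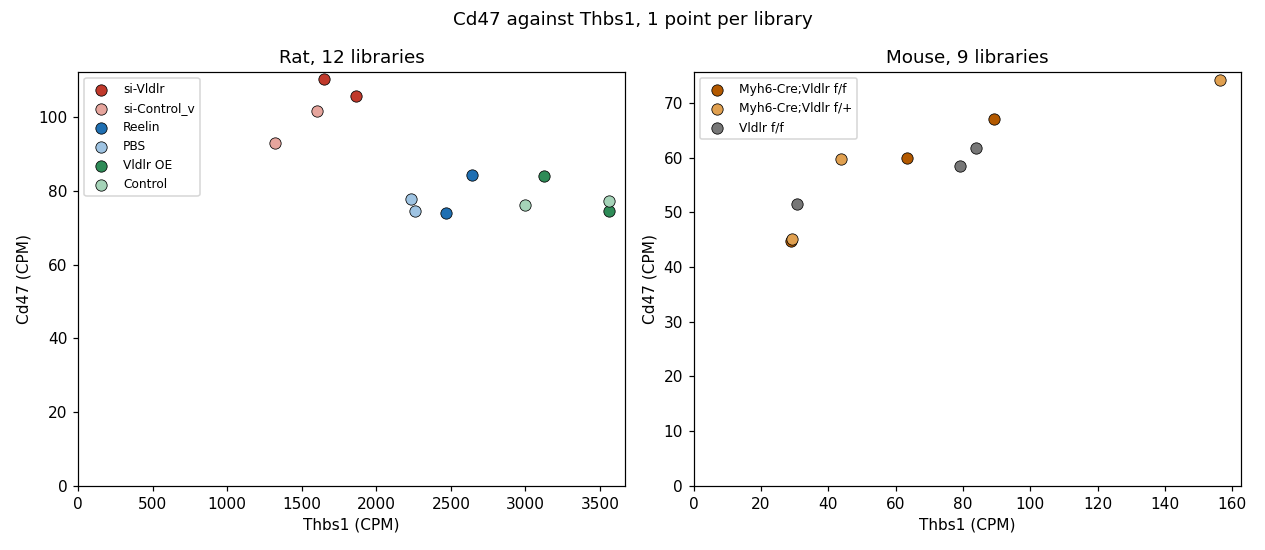
Cd47 against Thbs1 (both CPM), 1 point per library, in the 12-library rat table (left) and the mouse table (right). In mouse the 2 libraries lowest in Thbs1 (29.0 and 29.2 CPM) were lowest in Cd47 (44.7 and 45.2 CPM) and the highest (156 CPM) was highest (74.2 CPM); in rat the 4 siRNA libraries had the lowest Thbs1 and the highest Cd47.

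Across the mouse libraries Cd47 was higher where Thbs1 was higher. Pearson's r of log2(CPM + 1) was 0.93 and Spearman's rho 0.95 over the 9 libraries (exact permutation test over all orders, two-sided, p = 0.000168 and 0.000353, adjusted over the 15 pairs of members to 0.00252 and 0.00529). These p-values count the 9 libraries as independent, although same-numbered libraries of the Cre genotypes deviated together over all genes. With those pairs averaged, which leaves 6 units, r was 0.93 and rho 0.94, and neither passed over the 15 pairs (exact permutation p = 0.00694 and 0.0167, adjusted p = 0.104 and 0.25). The 6 units count Vldlr f/f libraries as independent of the Cre ones, although some differently numbered ones deviated together (r of up to 0.44). Without the 2 libraries farthest from the median Thbs1, r was 0.87, and r of the deviations from the genotype means was 0.93. Over the 9 libraries the other 14 pairs had adjusted p of 0.618 or above for r and 0.536 or above for rho. The libraries share 1 table and its normalisation. Among 11355 genes averaging 5 CPM or more, Cd47 ranked 15 by r with Thbs1, so other genes had a higher r. The share of genes at or above its value was 0.132%. Thbs1 ranked 29 by r with Cd47 (0.255%). Mitochondrial genes took 14.2% to 24.7% of CPM in these libraries, 24.7%, 17.9% and 14.2% in the 3 libraries lowest in Thbs1 and 16.7% in the highest, and their part was not tested. In rat r was -0.73 over the 12 libraries, given without a test. There the libraries fall into sets of 4, each a manipulated group with its control, and the value follows those sets.

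By Pearson's r of log2(CPM + 1) over the 12 rat libraries, the genes most like Thbs1 were Smoc1 (0.99), Scube3 (0.99) and Filip1l (0.98). Those most like Thbs2 were Ptgir (0.96), Ch25h (0.94) and Cyp1b1 (0.94), and among those most like Thbs3 were S1pr3 (0.88) and Wnt4 (0.88). Among those most like Cd47 were Psme2 (0.97) and Ogfr (0.96). These values follow the sets formed by each manipulated group with its control. In the separate si-Thbs1 table, Smoc1 averaged 10.3 ± 1.4 CPM in si-Thbs1 and 9.32 ± 1.87 CPM in si-Control_t (SD, n = 2 each) with overlap, and Scube3 and Filip1l overlapped likewise. Psme2, a proteasome activator subunit, was at 73.3 to 94.8 CPM in si-Thbs1 and 102.0 to 140.0 CPM in si-Control_t, and Ogfr at 87.0 to 97.9 CPM and 111.7 to 129.6 CPM, both lower without overlap as Cd47 was.

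Over the 9 mouse libraries the genes most like Thbs1 were Hipk1 (0.96), Trim8 (0.95) and Zfp141 (0.95), and those most like Cd47 were Gpr137b (0.98), Crim1 (0.97) and Trim8 (0.97). Those most like Thbs2 were Nov (0.96), a matricellular protein of the CCN family, Sema3d (0.92) and Cd55 (0.90). Those most like Thbs3 were Mmp23 (0.95), Krt7 (0.92) and Akr1b8 (0.91). Those most like Thbs4 were Becn1 (0.94), Rrp36 (0.93) and Sh3bp5l (0.93), and those most like Comp were Thg1l (0.93), Kank1 (0.92) and Irak1 (0.91). None of the genes named here for rat was named for mouse.

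The pathway around the members was described by 8 lists, and no gene of any list was called in any comparison. For si-Vldlr, 9 of 14 thrombospondin receptor genes tested had positive differences (median 0.06, beside -0.02 over all genes), and Vldlr itself was the largest without overlap. Of the 12 genes of TGF-beta activation and response, 10 were positive (median 0.21). Of 13 matrix partners 10 were positive (median 0.16), while Spp1, which encodes osteopontin, was at 423 ± 11 CPM in si-Vldlr and 684 ± 34 CPM in si-Control_v. All 9 genes of endoplasmic reticulum stress were positive (median 0.19), with Sdf2l1, an endoplasmic reticulum chaperone component, at 41.1 ± 1.4 CPM in si-Vldlr and 31.0 ± 3.0 CPM in si-Control_v. Of 10 partners of Cd47, 6 were positive (median 0.04), and Ubqln2, a ubiquilin, was at 63.3 ± 1.2 CPM in si-Vldlr and 45.8 ± 0.8 CPM in si-Control_v (SD, n = 2 each for all of these). The lowest limma adjusted p among them was 0.0949, for Ubqln2. The proteases acting on thrombospondins (median -0.01, 3 of 8 positive), the other proteins with type 1 repeats (-0.12, 1 of 9) and the regulators of Thbs1 transcription (-0.07, 3 of 8) were below or near 0. In the same comparison 8 of 9 cardiomyocyte markers were negative (median -0.23). Their sums were 30166 to 31305 CPM in si-Vldlr and 34408 to 34872 CPM in si-Control_v. Positive were 5 of 6 epicardial markers (median 0.24) and 5 of 7 smooth muscle and pericyte markers (0.13). Negative were 6 of 7 macrophage (-0.21), 4 of 7 endothelial (-0.18) and 5 of 9 fibroblast markers (-0.10). The part of these markers was not tested. Mmp14, a membrane-bound protease, was at 618 ± 21 CPM in si-Vldlr and 535 ± 62 CPM in si-Control_v, and Hif1a, the hypoxia-inducible factor, was at 98.6 ± 3.9 CPM in si-Vldlr and 116.5 ± 3.9 CPM in si-Control_v. Spon2, the named gene with type 1 repeats, differed by -0.58.

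Reelin left the lists close to the median of all genes (0.02), their medians lying between -0.01 and 0.06. The largest difference without overlap was that of Stim1, a calcium sensor of the endoplasmic reticulum, at 23.5 ± 0.9 CPM in Reelin and 30.1 ± 3.0 CPM in PBS (SD, n = 2 each, limma adjusted p = 1). Ltbp1, which holds latent TGF-beta in the matrix, was at 161 ± 11 CPM in Reelin and 145 ± 1 CPM in PBS. In the remaining lists Ubqln1, Tnc, Adamts7, Rspo3, Creld2 and Egr1 had the largest differences without overlap, of -0.24 for Rspo3 to 0.14 for Adamts7. Smooth muscle and pericyte sums were 1108 to 1155 CPM in Reelin and 1068 to 1096 CPM in PBS. Macrophage sums were 1063 to 1128 CPM in Reelin and 934 to 999 CPM in PBS. Cardiomyocyte sums were also higher without overlap, epicardial sums were lower without overlap, and the other marker sums overlapped. The part of these markers in the Thbs1 value was not tested.

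For Vldlr OE, 8 of 9 genes of endoplasmic reticulum stress were positive (median 0.11, beside -0.03 over all genes), with Sdf2l1 at 47.3 ± 3.1 CPM in Vldlr OE and 36.5 ± 1.4 CPM in Control. Of 8 proteases 5 were positive (median 0.11), with Mmp9 at 28.2 ± 2.3 CPM in Vldlr OE and 18.0 ± 1.6 CPM in Control (SD, n = 2 each). Both had limma adjusted p = 0.958, as had every other gene named for this comparison. Of 14 receptors 4 were positive (median -0.06), and of 8 regulators of Thbs1 transcription 1 was (median -0.07), with Wwtr1 at 52.1 ± 3.6 CPM in Vldlr OE and 58.7 ± 0.9 CPM in Control. The Cd47 partners, TGF-beta genes, matrix partners and type 1 repeat proteins had medians of -0.01 or nearer to 0, and their largest differences without overlap were those of Qpctl (0.20), Skil (-0.32), Matn2 (0.15) and Rspo3 (-0.38).

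For si-Thbs1, all 8 proteases acting on thrombospondins had negative differences (median -0.29, beside 0.03 over all genes). Mmp9 was at 18.2 ± 1.6 CPM in si-Thbs1 and 31.6 ± 1.5 CPM in si-Control_t (SD, n = 2 each, limma adjusted p = 0.471, the lowest of the genes named for this comparison). Of 8 proteins with type 1 repeats 7 were negative (median -0.36), with Cilp, a cartilage matrix protein, at 12.6 ± 1.8 CPM in si-Thbs1 and 22.2 ± 5.9 CPM in si-Control_t. The TGF-beta genes were split at 6 positive of 12 (median 0.05), with Tgfb3 averaging 55.5 CPM in si-Thbs1 and 32.2 CPM in si-Control_t, a difference of 0.69 (SE 0.31). The partners of Cd47 were also split, 5 of 10 (median 0.03), and Gucy1b1, a subunit of the nitric oxide receptor that Cd47 signalling restrains, was at 19.1 ± 2.4 CPM in si-Thbs1 and 12.1 ± 1.3 CPM in si-Control_t. Of 14 receptors 8 were positive (median 0.09), with Lrp8, the other Reelin receptor, at 17.8 ± 3.6 CPM in si-Thbs1 and 13.5 ± 0.9 CPM in si-Control_t. Of 13 matrix partners 9 were negative (median -0.03), while Tnc, which encodes tenascin-C, was at 126.7 ± 28.4 CPM in si-Thbs1 and 88.3 ± 6.7 CPM in si-Control_t. The genes of endoplasmic reticulum stress (7 of 9 negative, median -0.11) and the regulators of Thbs1 transcription (5 of 8 negative, median -0.11, with Egr1 at 277 ± 6 CPM in si-Thbs1 and 304 ± 20 CPM in si-Control_t) lay below the median of all genes.

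In mouse the lists were read against medians over all genes of -0.11 for Myh6-Cre;Vldlr f/f set against Vldlr f/f, -0.06 for Myh6-Cre;Vldlr f/+ set against Vldlr f/f, and, with the Cre genotypes compared, -0.06 for Myh6-Cre;Vldlr f/f set against Myh6-Cre;Vldlr f/+. For Myh6-Cre;Vldlr f/f set against Vldlr f/f, 11 of 12 TGF-beta genes were negative (median -0.25) and 8 of 9 genes of endoplasmic reticulum stress were negative (median -0.32), with Sdf2l1 at 3.30 ± 1.39 CPM in Myh6-Cre;Vldlr f/f and 5.34 ± 0.34 CPM in Vldlr f/f. Ptpn6, a phosphatase that acts downstream of Sirpa, was at 3.64 ± 0.68 CPM in Myh6-Cre;Vldlr f/f and 5.14 ± 0.23 CPM in Vldlr f/f. The other lists had medians of -0.23 to 0.11 in this comparison. In the same comparison 6 of 7 smooth muscle and pericyte markers were negative (median -0.61), with sums of 561.6 to 590.6 CPM in Myh6-Cre;Vldlr f/f and 798.3 to 1009 CPM in Vldlr f/f, and their part was not tested.

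For Myh6-Cre;Vldlr f/+ set against Vldlr f/f, 8 of 9 genes of endoplasmic reticulum stress were again negative (median -0.21), and this comparison shares its control libraries with the one above. Gnai2, an inhibitory G protein subunit, was at 370 ± 22 CPM in Myh6-Cre;Vldlr f/+ and 412 ± 16 CPM in Vldlr f/f. Tead1, a partner of the Hippo pathway coactivators, was at 87.6 ± 67.4 CPM in Myh6-Cre;Vldlr f/+ and 16.7 ± 2.6 CPM in Vldlr f/f (SD, n = 3 each, limma adjusted p = 0.999). Between Myh6-Cre;Vldlr f/f and Myh6-Cre;Vldlr f/+, list medians lay between -0.25 and 0.02, and Vldlr was the only gene named. The lowest limma adjusted p of the genes named for the mouse was 0.997, for Vldlr, Ptpn6 and Sdf2l1 in Myh6-Cre;Vldlr f/f set against Vldlr f/f.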

How the data were processed

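RNA-seq values of 25 libraries were read from 3 tables of CPM that the authors deposited, 1 row per gene symbol. Every column sums to 1000000. The submitters' processing notes name, without roles, the builds rn6 and mm10 and the tools edgeR 3.20.9, StringTie 1.3.4 and HISAT2 2.1.0; the annotation and the use of strand are not given in the sources used here. Rows with repeated, date-like names (4 per table) were left out. Columns were matched to samples by name except the 2 Control columns, assigned by elimination. No 2 libraries held identical values.

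Genes reaching 1 CPM in 2 rat or 3 mouse libraries were tested by limma 3.58.1 (R 4.3.3) with a trend of the variance on level, on log2(CPM + 1), all groups of a table in 1 fit, with Benjamini-Hochberg adjustment over all genes and calls at 0.05. The spacing of the values gave 66088371 to 78370873 whole steps per mouse library and 77530469 to 97773382 per rat library. Steps below 2000 were whole within 0.05 for 100% of mouse and 98.7% to 98.9% of rat values, so edgeR 4.0.16 was run on mouse steps alone, as an alternative; whether a step is 1 read is not known, so no counting interval is given. In the mouse, same-numbered libraries of the Cre genotypes deviated together (r = 0.46, 0.44 and 0.33 for numbers 1, 2 and 3). Same-numbered libraries of a Cre genotype and Vldlr f/f did not (r of -0.54 to 0.06). Differently numbered libraries of a Cre genotype and Vldlr f/f had r of -0.27 to 0.44, so some of them deviated together. The labels do not say what the number marks. The alternatives were pseudocounts of 0.1 and 5 CPM, no filter, median-ratio scaling, each library left out, a replicate block, the compared groups alone and edgeR. The main limma fit of each of the 7 comparisons was tested on simulated data. The simulated noise was drawn independently for each library, so libraries that deviate together were not simulated. The alternatives and the difference of responses were not tested on simulated data.

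The members and gene lists were chosen with earlier results of these data known. Besides the members and Vldlr, the text names from each list the called genes or else the member with the largest difference, at least 5 CPM in a compared group and no overlap, and for each member with a mean of at least 5 CPM the 3 genes with the highest r. A few genes that this rule selects are not reported here.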

Additional observations from a re-analysis of the deposited data

How the results depend on the processing

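No member passed the threshold under any alternative: of 459 refitted member values 0 did, the lowest limma adjusted p being 0.132 for Thbs2 after si-Thbs1 with the replicate block (main value 0.833). The replicate block gave 0.137 for Thbs1 and 0.223 for Cd47 in that comparison, whose same-numbered libraries deviated together (r = 0.41) but number 2 pairs only, so the numbers are not shown to pair them. The count of all genes called was 43 with that block against 6 without it, and 0 with no filter. For si-Vldlr 4 genes were called, 9 with a pseudocount of 5 CPM and 8 in a fit of the compared groups alone. The compared groups alone gave 13 genes for Reelin (2 in the whole fit), 8 for Vldlr OE (1 in the whole fit, 4 with no filter) and 1 for Myh6-Cre;Vldlr f/f set against Vldlr f/f (0 in the whole fit). The replicate block changed no other count by over 1.5 times, giving 4 genes for si-Vldlr, 3 for Reelin and 0 in mouse, and 0 between the Cre genotypes in a fit of those alone, chosen after seeing the data. The Control columns carry no number, so no block was fitted for Vldlr OE. Leaving out 1 library gave 4 to 167 genes for si-Vldlr, 5 to 10 for Reelin, 2 to 257 for Vldlr OE, 14 to 185 for si-Thbs1, 0 to 1 for each Cre genotype set against Vldlr f/f and always 0 for Myh6-Cre;Vldlr f/f set against Myh6-Cre;Vldlr f/+; the cause was not tested.

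The values whose direction turned were log2 differences of up to 0.35 in size (Comp for Myh6-Cre;Vldlr f/+ set against Vldlr f/f). Comp for si-Vldlr (-0.00041) was 0.031 with a pseudocount of 0.1 CPM and 0.0049 with median-ratio scaling. Thbs1 for Myh6-Cre;Vldlr f/+ set against Vldlr f/f was 0.0045 with a pseudocount of 5 CPM, 0.067 with scaling and 0.29 with edgeR. For Myh6-Cre;Vldlr f/f set against Vldlr f/f, scaling gave 0.017 for Thbs1 and 0.11 for Cd47, and edgeR gave 0.11 for Cd47; scaling moved the median of all genes there by 0.11. With 1 library left out, log2 differences ran over 0 for si-Vldlr (-0.044 to 0.38 for Thbs3, -0.30 to 0.30 for Comp), Reelin (-0.038 to 0.29 for Thbs2, -0.11 to 0.0077 for Thbs3, -0.34 to 0.17 for Comp, -0.037 to 0.15 for Cd47), Vldlr OE (-0.093 to 0.15 for Thbs1, -0.14 to 0.15 for Thbs2, -0.038 to 0.13 for Cd47), the si-Vldlr minus Vldlr OE response (-0.19 to 0.24 for Thbs4, -0.57 to 0.032 for Comp), si-Thbs1 (-0.24 to 0.16 for Thbs3, -0.15 to 0.77 for Comp), Myh6-Cre;Vldlr f/f set against Vldlr f/f (-0.56 to 0.35 for Thbs1, -0.62 to 0.24 for Comp, -0.14 to 0.15 for Cd47), Myh6-Cre;Vldlr f/+ set against Vldlr f/f (-0.70 to 0.49 for Thbs1, -0.052 to 0.81 for Comp, -0.13 to 0.22 for Cd47) and Myh6-Cre;Vldlr f/f set against Myh6-Cre;Vldlr f/+ (-0.59 to 0.60 for Thbs1, -0.27 to 0.076 for Thbs3, -0.084 to 0.26 for Thbs4, -0.23 to 0.12 for Cd47). With 2 libraries in a group, the one left is assumed to vary like the other groups. The r of Thbs1 and Cd47 in mouse was 0.93 with same-numbered Cre libraries averaged, a choice made after seeing the data, but its exact permutation p adjusted over 15 pairs was 0.104, against 0.00252 over 9 libraries.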
